A study of Mus musculus with 12 samples.

Results

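The secreted Slit ligands and their Robo receptors were followed through RNA sequencing of whole mouse adrenal glands. All 7 members of both families, the ligands Slit1, Slit2 and Slit3 and the receptors Robo1, Robo2, Robo3 and Robo4, were found by symbol among the 24421 genes of the deposited table. The families were chosen by the mean of Slit1 in the comparison of Abcg1 cKO with the other adrenals, known from earlier results of these data, so this comparison is given for the 7 genes as a description and carries no test. In that description the means of Slit1 and Robo3 in Abcg1 cKO adrenals were 0.508 and 0.55 times those elsewhere, Robo4 was lower at 0.825 times, Robo1 was higher at 1.39 times, Robo2 lay at the 1.2-fold limit, and Slit2 and Slit3 lay within it.

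Slits are large extracellular proteins best known for repelling growing axons and migrating cells. They bind the immunoglobulin domains of Robo receptors together with heparan sulfate, and the receptors pass the signal to the actin cytoskeleton through adaptor proteins. Outside the nervous system the same genes act in kidney induction, heart and vessel formation, and Robo4 is known as a receptor of endothelial cells. Mammalian Robo3 differs from its relatives in binding the secreted protein Nell2 rather than Slits.

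The study sequenced 12 libraries of whole adrenals cleared of fat, from 2-month-old female mice on a mixed sv129-C57BL/6 background. There were 3 groups of 4 libraries. Both cKO groups carried a Cre recombinase placed in the Cyp11b2 (aldosterone synthase) gene. Abcg1 cKO mice also had conditional alleles of Abcg1, which encodes a cholesterol exporter, from which Cre removes the third exon, Abca1 cKO mice had conditional alleles of the related exporter Abca1, and control mice had the Cre alone by the design text of the series, while the methods also admit littermates with 1 of the conditional alleles. This Cre acts in steroidogenic cells of the cortex, so the RNA of a whole gland mixes recombined with other cells. Both a NovaSeq and a NextSeq were used, without a statement of which library was run where. The values are mean normalized counts made by the authors, that is, reads per gene divided by a size factor of the library and averaged over 4 Abcg1 cKO libraries or over 8 control and Abca1 cKO libraries, henceforth the combined group. Columns of single libraries were left aside because their names could not be tied to a sample, and the authors' own comparison, with its error, was also left aside, which means that no spread between animals is given here, control cannot be told apart from Abca1 cKO, and the depth per library is unknown. In bulk RNA, fewer cells of a type and less RNA per cell also cannot be told apart. Abcg1 itself, counted over the whole gene, had a mean of 249.7 in the Abcg1 cKO mice against 305 in the combined group. Abca1 had a mean of 10057 against 7791, a log2 ratio of 0.37. The combined group holds the Abca1 cKO libraries, and their part in this difference cannot be told apart.

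Both ligand genes Slit2 and Slit3 carry a microRNA gene in an intron, and the sequences are shown because receptors of the same pathway hold matches to them. Mir218-1 lies in intron 14 of the longest Slit2 transcript, with its 5p arm at chr5:48223966-48223986, and Mir218-2 lies in intron 14 of the longest Slit3 transcript, with its 5p arm at chr11:35616840-35616860, both on the plus strand of GRCm38. The 5p arms are identical and the 3p arms have different seeds. The mature sequences from RefSeq follow, with the seed, bases 2 to 8, in capitals.
mmu-miR-218-5p: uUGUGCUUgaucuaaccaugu
mmu-miR-218-1-3p: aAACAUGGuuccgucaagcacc
mmu-miR-218-2-3p: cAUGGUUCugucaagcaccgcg

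The 7 bases complementary to the 5p seed, AAGCACA, occur in the 3′ UTR of 4 members, searched on the transcript strand of the longest coding transcript in GENCODE. Robo1 has 1 match in 1733 bases of 3′ UTR, Robo2 has 2 in 3987, Robo3 has 1 in 343 and Slit2 has 2 in 3492. Slit1, Slit3 and Robo4 have none in 1212, 365 and 1728 bases. Over 21020 genes searched in the same way, 13.6% hold at least 1 match, with a median 3′ UTR of 935 bases, so that long 3′ UTRs such as that of Robo2 have more room for one. Each match is shown with its flanking bases, the match in capitals.
Robo1: tttttttggttttaaAAGCACAatc
Robo2, first match: attttatttggtgatAAGCACAaat
Robo2, second match: agtcacggcagacccAAGCACAgct
Robo3: gcttgtgactcactgAAGCACActg
Slit2, first match: cgccaatactagcagAAGCACAtct
Slit2, second match: agataattattagcaAAGCACAtaa
These are matches of letters, and binding was not measured. The libraries were selected for polyadenylated RNA, which leaves mature microRNAs out: Mir218-1 was listed at 0 in both group means and Mir218-2 at 0.244 in the Abcg1 cKO mice against 0.633 in the combined group. The host genes Slit2 and Slit3 were well covered, with means over all libraries of 324 and 374.

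Among the ligands, Slit1, by which the families were chosen, was past 1.2-fold, and Slit2 and Slit3 lay within it. Slit1, which acts chiefly in axon guidance in the nervous system, averaged 100.4 normalized counts in the Abcg1 cKO mice against 197.7 in the combined group. This is a ratio of 0.508, and a log2 ratio of -0.97 when 1 was added to each mean, as was done for every log2 ratio given. Slit2, a ligand with roles from the midline of the nervous system to the kidney, had a mean of 348 in Abcg1 cKO against 312 in the combined group, a log2 ratio of 0.16. Slit3, known from the diaphragm and from vessels, had a mean of 354 against 384, a log2 ratio of -0.12. Because the families were chosen by Slit1, nothing is read from its difference from Slit2 and Slit3.

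Among the receptors, Robo1 was higher, Robo3 and Robo4 were lower, and Robo2 lay at the 1.2-fold limit. Robo1, the main receptor for Slits in many tissues, had a mean of 5931 in the Abcg1 cKO mice against 4272 in the combined group, a ratio of 1.39 and a log2 ratio of 0.47. Robo2, its closest relative, had a mean of 110.2 against 91.9, a log2 ratio of 0.26, which lies just inside the 1.2-fold limit (0.263 on the log2 scale). Without the added 1, the ratio of the Robo2 means is 1.2002, just past the limit, so its side rests on the pseudocount.

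Robo3, the receptor of Nell2, had a mean of 28.4 in the Abcg1 cKO mice against 51.7 in the combined group, a ratio of 0.55 and a log2 ratio of -0.84. Its mean count is the lowest of the 7, so its ratio rests on the fewest reads. Robo4, the endothelial receptor, had a mean of 574 against 695, a log2 ratio of -0.28, which lies just outside the 1.2-fold limit.

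**Figure D1:**
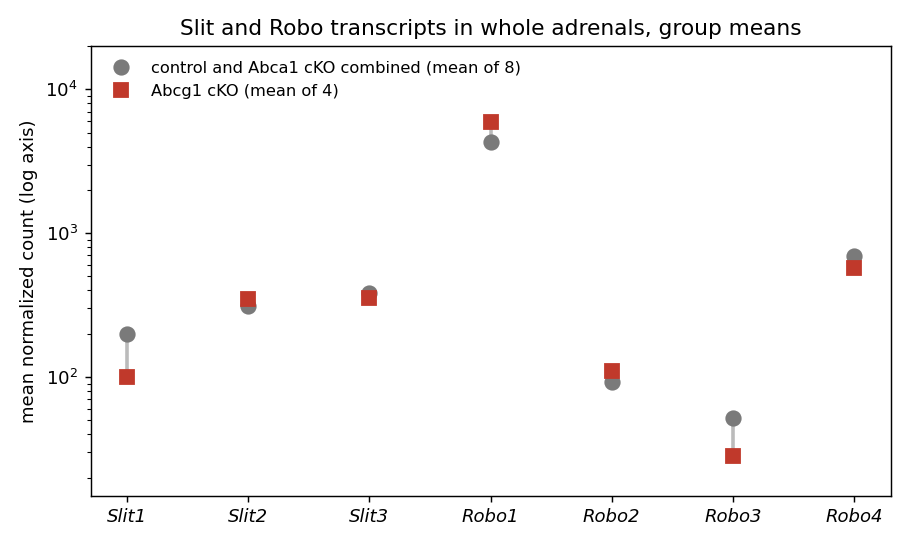
Mean normalized count (log axis) of the 7 genes in Abcg1 cKO (red squares, mean of 4 libraries) and in control and Abca1 cKO combined (grey circles, mean of 8 libraries), with no error bars because single libraries were not used. Slit1 is at 100.4 against 197.7 and Robo3 at 28.4 against 51.7, while Robo1 is at 5931 against 4272.

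All 7 genes had a mean over all libraries of at least 10, the limit used for counting genes past a fold. By the study's fold of 1.2, applied to the log2 ratios, 1 member was higher, 3 were lower and 3 lay within it. The study joined this fold to a limit on the adjusted P-value, which was not applied here. With the plain ratio of the means, 2 were higher, Robo2 being the second, 3 were lower and 2 lay within. Of the 14305 genes with a mean of at least 10, 10.4% were higher and 12.2% were lower by the same limit, 22.6% in either direction. The members were assembled around Slit1, so nothing is read from their count. Their median log2 ratio was -0.12, and that of all counted genes was 0.00127. Scaling by size factors tends to bring this median near 0, so it cannot show whether a general shift was present.

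Placed among these 14305 genes by log2 ratio, Slit1 lay at percentile 1, Robo3 at percentile 1.53 and Robo4 at percentile 11.5, counted from the lowest. Slit3 and Slit2 lay at percentiles 27 and 81. Robo2 lay at percentile 89.5 and Robo1 at percentile 96.1. By these values Slit1 and Robo3 were near the lower end of all genes, and Robo1 near the upper end. The families were chosen by Slit1 in this same comparison, so nothing is read from its place. The place of Robo3 rests on the lowest mean count of the members. No place is given with a spread between animals.

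**Figure D2:**
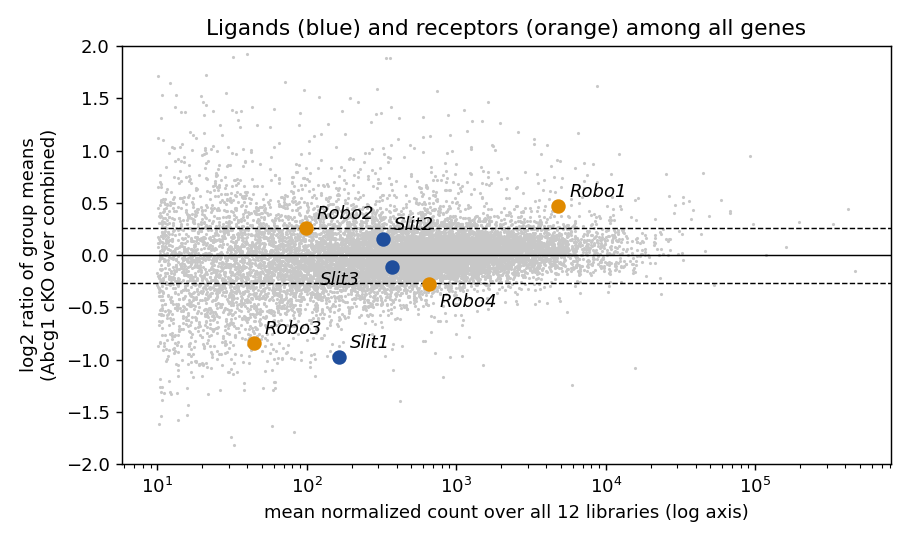
Log2 ratio of the group means (Abcg1 cKO over the combined group) against the mean normalized count over all 12 libraries (log axis) for 14305 genes in grey, with ligands in blue, receptors in orange and dashed lines at 1.2-fold. Robo3 lies at -0.84 at a mean of 44, Slit1 at -0.97 at a mean of 165.3, and Robo1 at 0.47 at a mean of 4825. A further 61 genes lie outside the axis and are not drawn.

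Levels of different genes can be set in order only per length, for which each mean was divided by the length of the longest transcript that GENCODE annotates. On this scale, in mean normalized counts per kb over all libraries, Robo1 was highest at 638 and was followed by Robo4 at 132.2, Slit3 at 71.5, Slit2 at 32.5, Slit1 at 29.1, Robo2 at 11.4 and Robo3 at 8.79. Robo1 was 4.82 times as high as Robo4 and 55.9 times as high as Robo2. Without a spread between animals, neighbours in this order that differ little, such as Slit2 and Slit1 with a ratio of 1.12, are not shown to differ. The length chosen matters: over the union of all annotated exons Slit2, Robo1 and Robo2 came to 12.7, 292 and 5.77 per kb, and Slit1 at 27.9 then stood above Slit2, and Robo3 at 6.42 above Robo2.

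Per length of the longest transcript, Slit1 and Slit2 stood in a different order in the groups. In the combined group Slit1 was at 34.8 per kb and Slit2 at 31.3. In Abcg1 cKO Slit1 was at 17.7 and Slit2 at 35. Over the union of exons Slit1 was above Slit2 in both groups, at 33.4 against 12.3 in the combined group and at 17 against 13.7 in Abcg1 cKO, so the change of order rests on the length chosen. Slit3 was the highest ligand in both groups on either length, at 73.4 and 67.7 per kb of the longest transcript. Slit1 made up 25% of the summed ligand level per length in the combined group and 14.7% in Abcg1 cKO, or 30.6% and 19.1% over the union of exons.

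Robo1 made up most of the receptor level in both groups, with 77.8% of the sum per length in the combined group and 85.4% in Abcg1 cKO. Robo4 came to 19.3% and 12.6%, Robo2 to 1.47% and 1.40%, and Robo3 to 1.42% and 0.619%. The shares depend on the length: over the union of exons Robo1 came to 64.2% and 75.1%, and Robo4 to 32.6% and 22.6%. The ligands together summed to 139.6 per kb in the combined group and 120.4 in Abcg1 cKO, a ratio of 0.863, or 0.817 over the union of exons. This sum includes Slit1, by which the families were chosen, at 34.8 and 17.7 per kb. Slit2 and Slit3 lay within 1.2-fold, so nothing is read from the ligand sum. The receptors together summed to 726 and 919, a ratio of 1.26, or 1.19 over the union of exons. Robo1 was at 565 and 784 per kb and Robo2 at 10.7 and 12.8. Robo4 and Robo3 went the other way, at 140.4 and 115.9 and at 10.3 and 5.69. The receptor sum thus mostly follows Robo1 and does not stand for the family.

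**Figure D3:**
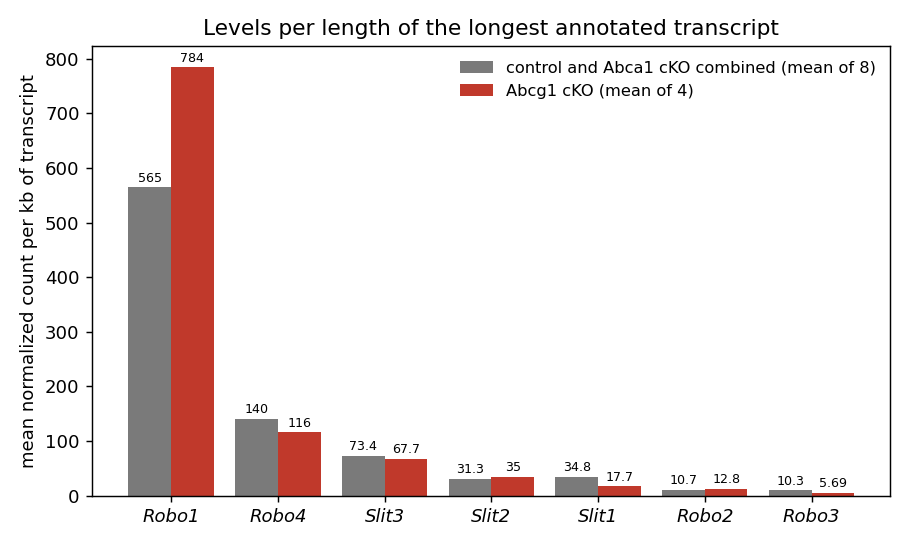
Mean normalized count per kb of the longest annotated transcript in the combined group (grey) and in Abcg1 cKO (red), ordered by the mean over all libraries, with no error bars because single libraries were not used. Robo1 is at 565 and 784 per kb, far above all other members, and Slit1 is above Slit2 in the combined group and below it in Abcg1 cKO, an order that does not change between groups when the union of exons is used.

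The 7 genes lie on 5 chromosomes of GRCm38 (mm10), and their positions are from GENCODE M21. Slit1 spans chr19:41600257-41743665 on the minus strand, with 36 exons in its longest transcript of 5673 bases. Slit2 spans chr5:47983138-48307733 and Slit3 spans chr11:35121224-35708507, both on the plus strand and with 36 exons in the longest transcript. The ligand genes thus share an exon number while their spans range from 143409 to 587284 bases.

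Robo1 and Robo2 lie on chromosome 16 with opposite strands, at 72308306 to 73046095 and 73891839 to 74411825, and are 845743 bases apart. Robo4 and Robo3 lie side by side on chromosome 9, Robo4 on the plus strand at 37401897 to 37415115 and Robo3 on the minus strand at 37415669 to 37433246. Their 3′ ends face each other across 553 bases, and they do not overlap. Both had lower means in Abcg1 cKO, with log2 ratios of -0.28 and -0.84.

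No annotated gene overlaps Slit1, Robo3 or Robo4. Slit2, Slit3, Robo1 and Robo2 overlap 7, 4, 1 and 7 other annotated genes, of which 1, 1, 1 and 2 are on the other strand. The library kit keeps the strand, while no source used here states the strand setting of the counting.

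Identical stretches of coding sequence within the families were short. The longest run of identical bases between any pair of ligands is 22, and between any pair of receptors 19. The longest run among the ligands, between Slit1 and Slit2, is shown in capitals with 12 flanking coding bases on each side.
Slit1: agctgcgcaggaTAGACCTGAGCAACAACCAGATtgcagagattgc
Slit2: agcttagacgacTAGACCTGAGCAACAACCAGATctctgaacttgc

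RefSeq promoter windows were available for 6 of the 7 members, not for Slit1. The stretches of Robo3 and Robo4, the adjacent receptors that were lower, and of Robo1, the receptor that was higher, are shown from 250 bases before the start up to the start or to the first annotated exon, with any GC box (GGGCGG on either strand) in capitals. They are chr9:37433247-37433425 on the minus strand for Robo3, chr9:37401722-37401896 on the plus strand for Robo4 and chr16:72662899-72663148 on the plus strand for Robo1, in GRCm38. The Robo1 window lies inside the annotated span of the gene, before a start used by RefSeq.
Robo3: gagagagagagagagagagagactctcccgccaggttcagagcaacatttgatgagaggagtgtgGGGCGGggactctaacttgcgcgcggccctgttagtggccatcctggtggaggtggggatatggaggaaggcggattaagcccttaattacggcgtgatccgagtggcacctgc
Robo4: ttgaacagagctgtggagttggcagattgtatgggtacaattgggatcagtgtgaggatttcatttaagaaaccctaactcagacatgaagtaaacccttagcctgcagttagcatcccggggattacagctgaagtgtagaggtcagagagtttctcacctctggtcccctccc
Robo1: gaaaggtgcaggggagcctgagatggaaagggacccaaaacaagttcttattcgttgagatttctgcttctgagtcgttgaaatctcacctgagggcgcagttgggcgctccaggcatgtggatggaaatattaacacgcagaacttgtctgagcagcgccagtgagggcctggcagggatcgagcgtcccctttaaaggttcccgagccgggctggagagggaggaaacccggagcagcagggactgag

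In the full windows of 250 bases, Robo3 holds 3 GC boxes, of which 1 is in the stretch shown, Slit2 holds 3 and Slit3 holds 6, with overlapping copies counted separately, whereas Robo1, Robo2 and Robo4 hold none. A GC box is present in 32.7% of all 32851 windows. The window of Slit2 also holds TATAAA, found on either strand in 12.4% of all windows. The letters AAGGTCA, a half-site of the cortical factor SF-1, and CCGGAAG, a core for ETS factors, were not found in the windows of these 6 members on either strand, and 4.08% and 6.91% of all windows hold them. The windows of Robo3 and Robo4 hold 61.2% and 49.6% G or C and 12 and 2 CpG pairs. A link between these sequences and the ratios was not tested.

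Beyond the members, the genes with which Slits and Robos work were close to their level in the combined group. Of 34 such genes with a mean of at least 10, 3 were higher past 1.2-fold, 1 was lower and 30 lay within, against 10.4% higher and 12.2% lower of all genes. Their median log2 ratio was 0.05, with a range from -0.31 to 0.44.

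Of 10 genes for Slit-binding co-receptors and for heparan sulfate and its synthesis, 2 were higher past 1.2-fold and 8 lay within. The share higher over all counted genes was 10.4%. Their median log2 ratio was 0.18, and all 10 were above 0, as were 50.3% of all counted genes. Plxna1, a semaphorin co-receptor that also binds a fragment of Slit, had a mean of 2933 in the Abcg1 cKO mice against 2167 in the combined group, a log2 ratio of 0.44. Sdc1, a heparan sulfate proteoglycan, had a mean of 337 against 257, a log2 ratio of 0.39. Sdc3, the most abundant of the list, had a log2 ratio of 0.22, and Ext1, which polymerizes heparan sulfate, one of 0.20.

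The intracellular effectors of Robo mostly lay close to 0. Of 17 genes, 12 had a log2 ratio below 0 and 5 above, with a median of -0.05. Of all counted genes, 50.3% were above 0. Past 1.2-fold, 1 of the 17 was lower and none was higher, against 12.2% lower and 10.4% higher of all counted genes. The lower gene was Evl, an actin regulator of the Ena/VASP family. It had a mean of 278 in the Abcg1 cKO mice against 344 in the combined group (log2 ratio -0.31). For Vasp, a relative of Evl, it was -0.19. The Slit-Robo GTPase-activating proteins Srgap1 and Srgap3 had log2 ratios of -0.21 and -0.17. Cdc42, which had the highest mean of the list, had one of 0.13.

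Of 7 genes for trafficking of Robo and for its partners, 1 was higher past 1.2-fold, against 10.4% of all counted genes. Flrt3, a membrane protein that associates with Robo1, had a mean of 504 in the Abcg1 cKO mice against 417 in the combined group, a log2 ratio of 0.27. Ndfip1 and Nedd4, an adaptor and a ubiquitin ligase that remove Robo1 from the cell surface, had log2 ratios of 0.17 and -0.03. Usp33, a deubiquitinase that binds Robo1, had one of 0.07. Nell2, the ligand of Robo3 and named here for that reason outside the rule for named genes, had means of 32.6 and 32.5, so the lower mean of Robo3 was not paralleled by its ligand.

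Markers of cell types in the gland were measured beside the members. Of all counted genes, 10.4% were higher and 12.2% lower past 1.2-fold, the shares to set beside each count of markers here and below. The tissue was adrenal by its defining markers, with Star at 507891 in the Abcg1 cKO mice against 374521 in the combined group. Hsd3b1, the cortical marker with the highest mean, went the other way, at 434588 against 482180, a log2 ratio of -0.15. Of the 7 cortical markers, 5 had a log2 ratio above 0 and 2 below. All 8 chromaffin markers of the medulla were higher past 1.2-fold, with a median log2 ratio of 0.40. They ranged from 0.29 to 0.83, the highest being Pnmt, which makes adrenaline, and summed to 178582 against 131363. All 4 adipocyte markers were higher, with a median of 1.17, and all 4 lymphocyte markers above the limit on low means were lower, with a median of -0.88, at summed means of 36.4 and 71.7. The part of these shifts in the values of Slit1, Robo1 and Robo3 was not tested.

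Robo4 can be set beside other genes of endothelial cells. Of 9 endothelial markers, 2 were lower past 1.2-fold and none was higher, with a median log2 ratio of -0.10 and summed means of 15954 against 17216. Egfl7 and Esam, a secreted factor and a junction protein of endothelium, had log2 ratios of -0.42 and -0.31, beside -0.28 for Robo4. Emcn and Plvap had log2 ratios of -0.20 and -0.17. The other endothelial markers lay nearer 0, with Pecam1 at -0.10, Tie1 at -0.05, Cdh5 at -0.02, Kdr at 0.03 and Tek at 0.05. The part of endothelial content in the lower mean of Robo4 was not tested.

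Slit1 can likewise be set beside the outer cortex and capsule. Of 4 zona glomerulosa markers 1 was lower, Shh, the hedgehog ligand of that zone, with a mean of 308 in Abcg1 cKO against 471 (log2 ratio -0.61). Dab2 and Cyp11b2 had log2 ratios of -0.25 and 0.14. Of 7 capsule and fibroblast markers 1 was lower, Gli1, a target of hedgehog signalling, with a log2 ratio of -0.44. The list median was 0.06, with 5 of the 7 above 0, among them Col1a1 at 0.15, Rspo3 at 0.11 and Dcn at 0.08. Of 7 cortical markers 4 were higher, with a median log2 ratio of 0.30. Schwann and mural cell markers had medians of 0.0044 and 0.0075, with 1 of 3 and 1 of 5 counted genes higher past 1.2-fold. Which of these cells express Slit1 was not measured.

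**Figure D4:**
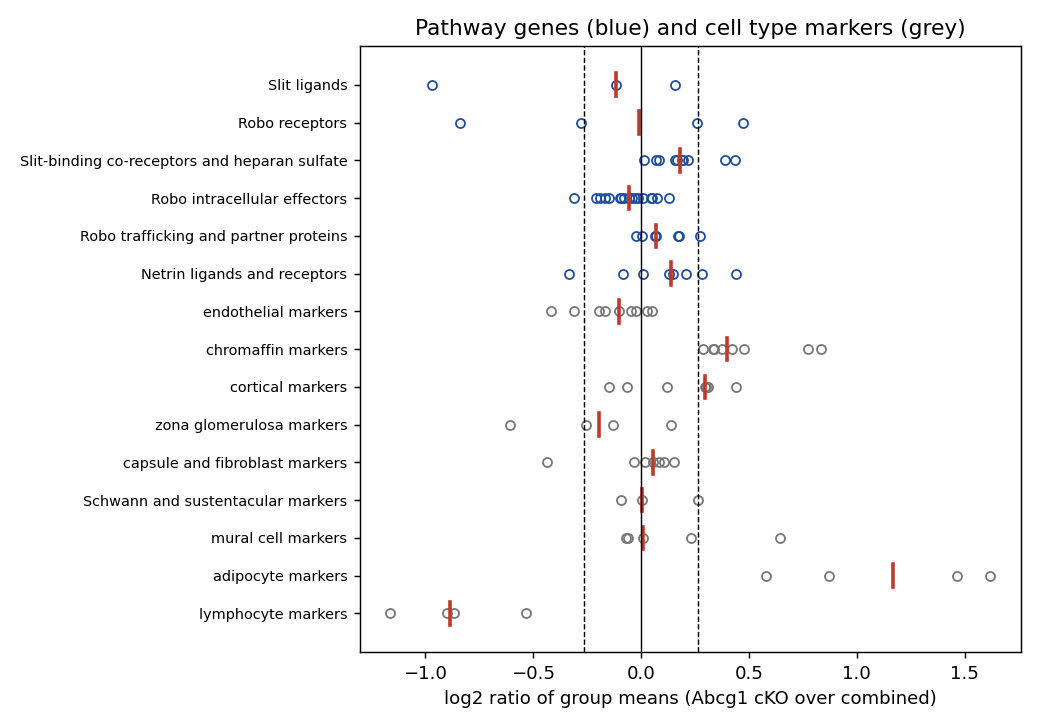
Log2 ratio of the group means (Abcg1 cKO over the combined group) for genes of 15 lists with a mean of at least 10, pathway genes in blue and cell type markers in grey. Each circle is a gene, red bars are list medians and dashed lines mark 1.2-fold. Slit1 at -0.97, Robo3 at -0.84 and Robo1 at 0.47 lie outside the range of the other pathway lists, from -0.33 to 0.44. The families were chosen by Slit1, and Robo3 has the lowest mean of the 7 members, so nothing is read from these positions.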

How the data were processed

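Polyadenylated RNA of 12 whole adrenals was sequenced. The study's methods and processing notes name bcl2fastq 2.20.0.422 for demultiplexing, cutadapt 4.0 for adapters, FastQC 0.11.9 and BBTools for read quality, STAR 2.7.10a for alignment (mm10), and HTSeq 0.13.5 for uniquely mapped reads in genes. The authors normalized the counts with DESeq2 1.38.3. The deposited signal values used here are mean normalized counts per group, made by the authors as counts divided by size factors and averaged. The mean over all libraries equals the group means weighted by 4 and 8, within rounding. A further 12 columns of single libraries could not be tied to a label by their names and were left aside. Matching them to the group means by their values was not tried. The 4 columns of the authors' own comparison (fold change, its error, p and adjusted p) were not used.

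The design assumed values per library for limma. As none could be assigned by name, no test was run. Computed here, in Python 3.11.15 with pandas 2.3.3, were log2 ratios with a pseudocount of 1, counts past 1.2-fold among genes with a mean of at least 10, and levels per kb of transcript in GENCODE M21. The log2 ratio function was tested on simulated counts with planted changes and no spread between animals, and the exon union function on a small example. These tests tell nothing of the spread between animals, and the other steps were not tested in this way. Coding sequences were compared by their longest shared run. Members and lists were chosen with earlier results of these data known. Genes named are the members and, per list, the 4 largest ratios and the highest mean. Genes most like Slit1 over libraries were not sought.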

Additional observations from a re-analysis of the deposited data

How the results depend on the processing

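No paired analysis was possible because the columns of single libraries carry no sample name or replicate number. For the same reason the fits of Abcg1 cKO against the combined group or control alone, without a filter, with other pseudocounts, with edgeR or DESeq2, and with left-out libraries were not run. For the 7 members, 28 alternative values were computed. The settings were pseudocounts of 0.1 and 10, centring on the median of all genes and, chosen after seeing the data, no pseudocount. Of these values, 27 moved by less than 0.1 on the log2 scale, a limit set for want of a replicate spread. The exception was Robo3, at -0.68 with a pseudocount of 10. A pseudocount cannot change the sign of a ratio, and the centring took off only 0.00127, so the direction was not put to a test. Nor do small moves under these settings tell anything of the spread between animals. Robo2 changed its side of 1.2-fold with no pseudocount, and no other member did so under these 4 settings. Over all genes, the number higher past 1.2-fold was 1493 and the number lower 1745. With no filter on low means they were 2629 and 3587, and with a mean of at least 50 they were 1107 and 1034, which turns the balance from more lower to more higher. Levels per kb over the union of annotated exons were 12.7 for Slit2, 61.6 for Slit3, 292 for Robo1, 5.77 for Robo2 and 6.42 for Robo3, which puts Slit1 at 27.9 above Slit2 and Robo3 above Robo2. The unknown depth limits Robo3 most, which has the lowest mean.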

Other observations

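Netrins and their receptors form the other large guidance system that meets the Robo pathway, through receptors such as Dcc and Unc5b. Of 11 such genes in the table, 8 had a mean of at least 10, and of these 2 were higher past 1.2-fold, 1 was lower and 5 lay within. Over all counted genes the shares were 10.4% higher and 12.2% lower. Unc5c, a repulsive netrin receptor, had a mean of 244 in the Abcg1 cKO mice against 179.6 in the combined group (log2 ratio 0.44). Dcc, the attractive netrin receptor, had a mean of 47.8 against 39.1 (log2 ratio 0.28). Ntn4, a netrin of basement membranes, had a mean of 174.8 against 220.1 (log2 ratio -0.33). Ntn1 had a log2 ratio of 0.21 and Neo1, the most abundant receptor of the list, one of 0.0085. The list median was 0.14, with a range from -0.33 to 0.44. These values carry no test, since single libraries were not used.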
